A study of Mus musculus with 32 samples.

Results

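Neurofilament and stathmin RNAs were followed in the soma and neurites of cultured mouse hippocampal neurons. The neurofilament genes are Nefl, Nefm and Nefh, which encode the light, medium and heavy neurofilament proteins, and Ina, which encodes alpha-internexin. The stathmin genes are Stmn1, Stmn2 (also called SCG10), Stmn3 (also called SCLIP) and Stmn4 (also called RB3). These 8 genes were chosen by name as the members of both families, out of 55573 genes in the count table, and all 8 passed the filter on low counts. Neurofilaments are the intermediate filaments of neurons. They fill axons and set their calibre, and the light chain forms the core on which the medium and heavy chains assemble. Stathmins bind tubulin dimers and promote the shortening of microtubules until kinases phosphorylate them, and Stmn2, Stmn3 and Stmn4 carry an added N-terminal region that anchors them to membranes.

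RNA-seq covered 16 libraries in 8 groups of 2, from soma and neurites, WT and Mettl3 KO, untreated (Ctrl) and KCl-treated. WT neurons came from C57BL/6 mice and Mettl3 KO neurons from Mettl3Flox/Flox mice, so the genotype and the mouse line cannot be told apart. METTL3 is the enzyme that writes m6A on mRNA. Hippocampi of neonates were pooled and grown on porous inserts for 15 days. All cultures, WT included, received an AAV that expresses Cre and dTomato from the neuronal hSyn promoter at day 7, so the gene is not deleted in cells other than neurons. All were silenced with TTX and D-AP5, and the KCl groups were then depolarized with 55 mM KCl for 2 h. The neurite fraction is what grew through the pores, and the soma fraction can also hold neurites that did not cross. By the study's methods, the replicates of a group came from different litters, a litter gave both untreated and KCl-treated neurons, and soma and neurites were taken from the same insert. The labels do not say whether a replicate number marks the same insert or litter across groups.

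Each library held between 33789183 and 71394235 counts. Mettl3 ranged from 8.90 to 17.3 CPM (counts scaled to the TMM-normalized size of each library) in the 8 WT libraries and from 3.88 to 11.6 in the 8 Mettl3 KO libraries. It was lower in Mettl3 KO in all 4 comparisons by edgeR, by 0.72 to 1.20 on the log2 scale, without passing the adjusted threshold (adjusted p between 0.273 and 0.625). These counts also cover exons outside the loxP-flanked exon and check the deletion only in part. Replicates spread far more in Mettl3 KO (common biological coefficient of variation 0.505) than in WT (0.151). The KCl-treated Mettl3 KO libraries of replicate 1 stood apart: the summed level of 10 neuron markers was 1216 CPM in soma and 715 in neurites, against 3559 and 3699.5 in replicate 2. In the same replicate 1 libraries 10 astrocyte markers summed to 9673 and 18686 CPM, against 2618 and 2795 in replicate 2. A set of 8 oligodendrocyte lineage markers summed to 3553 and 7039 CPM there, against 84.9 and 93.5. In WT, the neuron markers summed to between 3725 and 4983 CPM, no neuron marker was at 0, and the astrocyte markers ran from 1240 to 1688 CPM in soma and from 2087 to 3351 in neurites. In such bulk RNA, fewer cells of a type and less RNA per cell cannot be told apart.

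Stmn3, Stmn4 and Stmn1 were among the most abundant RNAs of these neurons, and the neurofilaments spanned a wide range. Levels of different genes were compared per kilobase of annotated exon. In untreated WT soma, Stmn3 stood at 497 ± 4.08 CPM per kb, Stmn4 at 294 ± 2.37, Stmn1 at 276 ± 0.489 and Stmn2 at 58.8 ± 2.05 (SD, n = 2). Those levels put Stmn3 at rank 57, Stmn4 at rank 131, Stmn1 at rank 137 and Stmn2 at rank 1073 of 24180 genes. Nefl stood at 117 ± 1.73 CPM per kb, Ina at 80.0 ± 5.34, Nefm at 28.0 ± 1.55 and Nefh at 8.51 ± 0.220 (SD, n = 2), at ranks 477, 746, 2218 and 5762. No 2 neighbours in this order overlapped between their libraries. The order was less clear in the other WT groups, where Stmn1 (292 and 320.0 CPM per kb) and Stmn4 (303 and 297) overlapped in untreated neurites. After KCl, Nefl reached the level of Stmn1: in KCl-treated neurites Nefl stood at 312 and 386 CPM per kb and Stmn1 at 334 and 341.

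Limits of the counting touch these levels. The length of a gene covers the exons of all its annotated transcripts. It can exceed the length of the expressed RNA and so lower the level per kilobase. Without division by length, Stmn2 stood at 329 CPM in untreated WT soma, against 531 for Stmn1, 563 for Stmn4 and 565 for Stmn3. Nefl (ENSMUSG00000022055) lies at chr14:68083863-68089095 on the plus strand and Nefm (ENSMUSG00000022054) at chr14:68082590-68124846 on the minus strand (GRCm38). An exon of an alternative Nefm transcript lies over 1108 bases of Nefl exons, which is 32.8% of the exon bases of Nefl and 19.2% of those of Nefm. The counting did not use strand, and reads that fall in exons of more than 1 gene were not assigned, so both genes were counted on the rest of their exons. Per kilobase of unshared exon, the levels in untreated WT soma were 174 CPM for Nefl, 34.7 for Nefm, 93.1 for Ina and 286 for Stmn1, and the order of the 8 genes was the same. The unshared length was chosen after the values were seen. The processed pseudogene Gm11223 matches Stmn1 over 460 bases at 97.6% identity. Its count was between 41.1% and 49.9% of that of Stmn1 in the 16 libraries. The counting included multi-mapping reads, so a read that maps to both genes can be counted at both. Which of the genes such reads came from was not tested. Nefh lies at chr11:4938754-4948064 on the minus strand, Ina at chr19:47014698-47025327 on the plus strand, Stmn1 at chr4:134468320-134473843 on the plus strand, Stmn2 at chr3:8509360-8561606 on the plus strand, Stmn3 at chr2:181306459-181314500 on the minus strand and Stmn4 at chr14:66344296-66361680 on the plus strand.

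**Figure D1:**
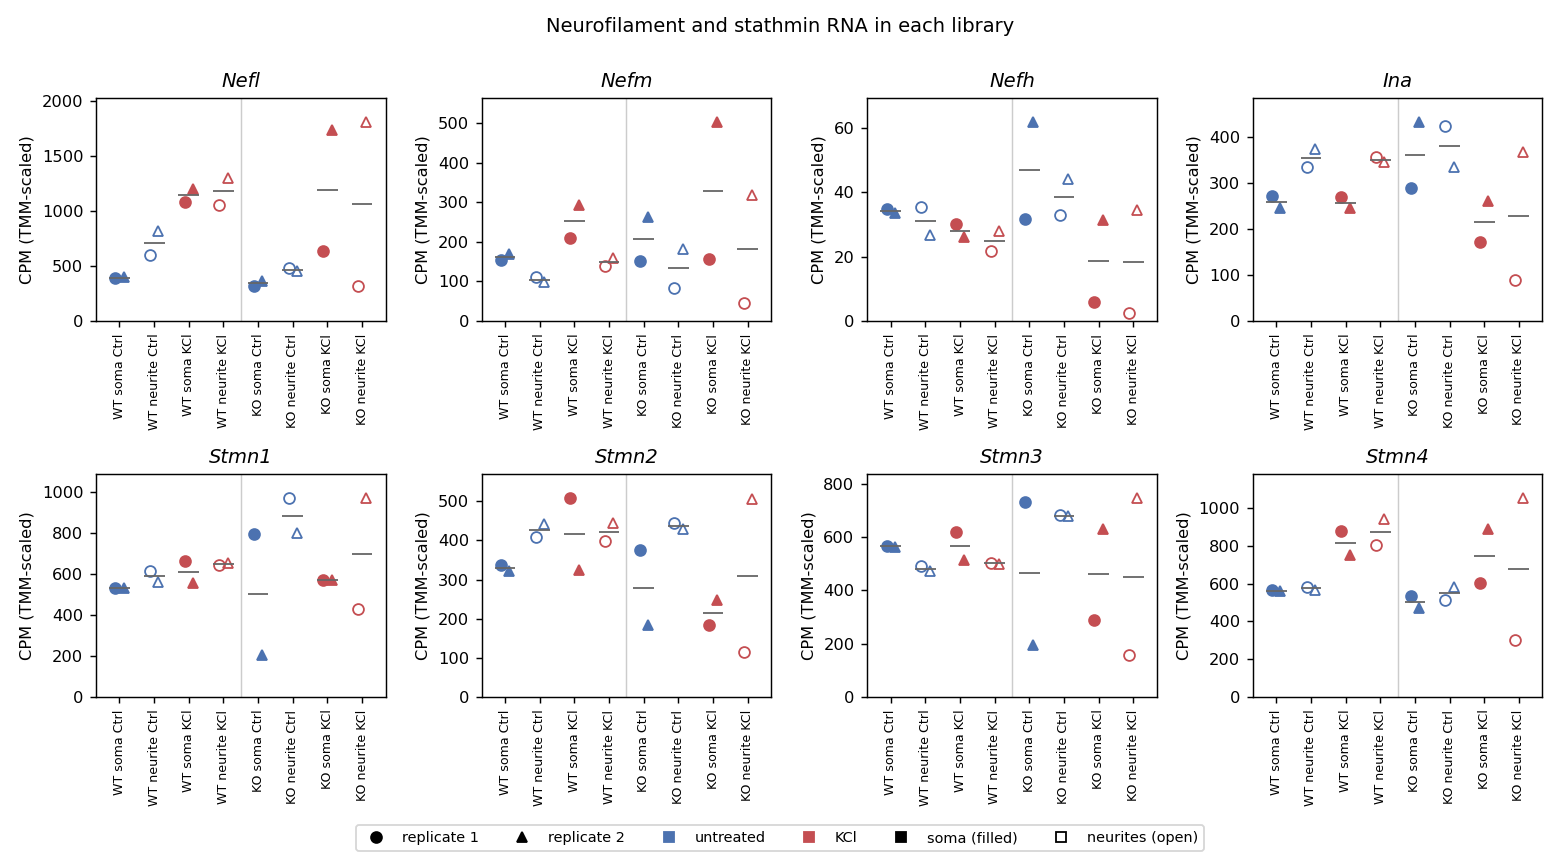
Level of each of the 8 RNAs in CPM (TMM-scaled, linear axis from 0) in every library, with WT groups to the left and Mettl3 KO groups to the right of the grey line, each point 1 library. Nefl lay at 391 and 399 CPM in untreated WT soma and between 1056 and 1304 in all 4 KCl-treated WT libraries, and the KCl-treated Mettl3 KO pairs were wide apart.

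In untreated WT neurons the light and the medium neurofilament RNAs were distributed in opposite directions. Nefl measured 391 and 399 CPM in soma and 603 and 822 in neurites. Nefm measured 156 and 168 CPM in soma and 111 and 98.7 in neurites. For both genes the soma and neurite libraries did not overlap. Nefl was 1.73-fold higher in neurites (log2 0.79, SE 0.16, edgeR adjusted p = 0.00891), and Nefm was 1.62-fold lower (log2 −0.70, SE 0.16, edgeR adjusted p = 0.0129). Ina, at 271 and 247 CPM in soma against 336 and 375 in neurites, was also higher in neurites in both libraries (log2 0.39, SE 0.11, adjusted p = 0.0365), but stayed under the 1.5-fold threshold. Nefh, the heavy chain, measured 34.6 and 33.4 CPM in soma and 35.4 and 26.7 in neurites, and these overlapped.

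None of the stathmins passed the test for neurite enrichment in untreated WT neurons. Stmn3 came nearest to the threshold, at 568 and 562 CPM in soma and 492 and 471 in neurites (log2 −0.30, SE 0.11, adjusted p = 0.0777). Stmn2, which acts in growing axon tips and in axon repair, measured 338 and 321 CPM in soma and 409 and 442 in neurites (log2 0.31, 95% interval −0.07 to 0.69, adjusted p = 0.232). Stmn1, the cytosolic founder of the family, and Stmn4 differed by 0.08 and −0.04 on the log2 scale, with 95% intervals of −0.16 to 0.31 and −0.28 to 0.21. In this comparison 2 of the 8 genes passed both thresholds, 1 in each direction, where 13.5% of all 23200 genes tested did so in either direction. The median log2 change was 0.02 over the 8 genes and −0.10 over all genes.

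Both calls rest on 2 libraries a side. Neither was called in the fit to all 16 libraries (Nefl log2 0.88, adjusted p = 0.826, and Nefm −0.61, adjusted p = 0.913), nor without soma Ctrl replicate 1 (0.85 and −0.68), soma Ctrl replicate 2 (0.88 and −0.56) or neurite Ctrl replicate 2 (0.51 and −0.65). Astrocyte markers were also higher in these neurite libraries (2087 to 3351 CPM) than in soma (1240 to 1259), and their part in the values of Nefl and Nefm was not tested.

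Medium-chain RNA kept the same direction after KCl, whereas the light chain did not differ detectably between compartments. Nefm measured 210.4 and 294 CPM in KCl-treated WT soma and 140.3 and 159 in neurites, without overlap, and was 1.67-fold lower in neurites (log2 −0.74, SE 0.16, adjusted p = 0.0129). Nefl measured 1082 and 1204 CPM in soma and 1056 and 1304 in neurites, a log2 difference of 0.06 with a 95% interval of −0.30 to 0.42. Ina was higher in neurites in both libraries (269 and 245 CPM in soma, 357 and 346 in neurites, log2 0.47, SE 0.11, adjusted p = 0.0239) and again under 1.5-fold. Nefh, Stmn1, Stmn2, Stmn3 and Stmn4 lay between −0.16 and 0.12. Thus 1 of the 8 genes was called, against 9.54% of all genes, and the medians were 0.05 and −0.03. Nefm was not called in the fit to all 16 libraries (−0.76), nor without neurite KCl replicate 1 (−0.67), soma KCl replicate 2 (−0.46) or neurite KCl replicate 2 (−0.82).

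Nefm was the only one of the 8 genes whose neurite-to-soma ratio lay on the same side of 1 in all 8 library pairs. Its neurite level divided by the soma level with the same replicate number was 0.711 and 0.586 in untreated WT, 0.667 and 0.540 in KCl-treated WT, 0.547 and 0.694 in untreated Mettl3 KO and 0.296 and 0.631 in KCl-treated Mettl3 KO. The ratio of Nefl was 1.54 and 2.06 in untreated WT and 1.48 and 1.24 in untreated Mettl3 KO. After KCl it was 0.976 and 1.08 in WT and 0.501 and 1.04 in Mettl3 KO.

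**Figure D2:**
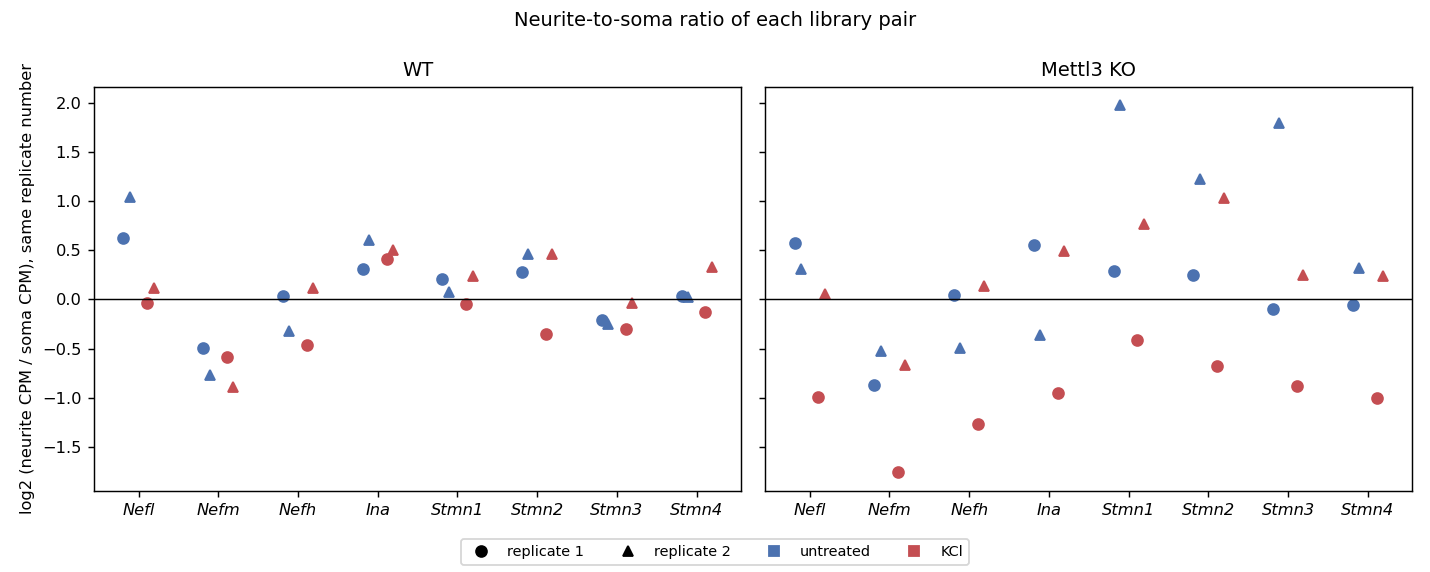
Log2 of the neurite level over the soma level for each of the 8 RNAs, WT on one panel and Mettl3 KO on the other, each point 1 pair of libraries with the same replicate number and treatment, the horizontal line at 0 marking equal levels. Every Nefm point lies below 0, and the untreated Nefl points lie above 0 in both genotypes.

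KCl depolarization raised the light-chain RNA in WT soma. Nefl went from 391 and 399 CPM to 1082 and 1204, a 2.90-fold rise (log2 1.54, SE 0.17, adjusted p = 0.000219). It was the only one of the 8 genes past the 2-fold threshold in soma, where 6.81% of all genes were called. Nefm went from 156 and 168 CPM to 210.4 and 294 (log2 0.64, SE 0.16, adjusted p = 0.0215) and Stmn4 from 566 and 560.0 CPM to 877 and 754 (log2 0.53, SE 0.11, adjusted p = 0.0098). Both were higher in both KCl libraries but under 2-fold. The other 5 genes lay between −0.28 (Nefh, adjusted p = 0.289) and 0.33 (Stmn2), and the median was 0.26 over the 8 genes and 0.01 over all genes. Nefl lost the call only in the fit to all 16 libraries (log2 1.61, adjusted p = 0.413), and its log2 change ran from 1.44 to 1.64 over 11 alternatives.

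In WT neurites, the same 3 RNAs had an adjusted p below the threshold, and none reached 2-fold. Nefl measured 603 and 822 CPM without KCl and 1056 and 1304 with it (log2 0.80, SE 0.16, adjusted p = 0.0131). Stmn4 measured 580.3 and 568 CPM without and 804 and 944 with KCl (log2 0.68, SE 0.11, adjusted p = 0.00339). Nefm measured 111 and 98.7 CPM without and 140.3 and 159 with KCl (log2 0.59, SE 0.16, adjusted p = 0.0425). In all 3 the KCl libraries lay above both untreated ones. The remaining genes lay between −0.23 (Nefh) and 0.22 (Stmn1), and the median was 0.18 against 0.01 for all genes. With the 2-fold threshold 0 of the 8 genes were called by edgeR and 0 by DESeq2, against 4.94% of all genes by edgeR, and 3 of the 8 had an unadjusted edgeR p below 0.05. Without neurite Ctrl replicate 2, Nefl was called at 1.08 (adjusted p = 0.0054).

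**Figure D3:**
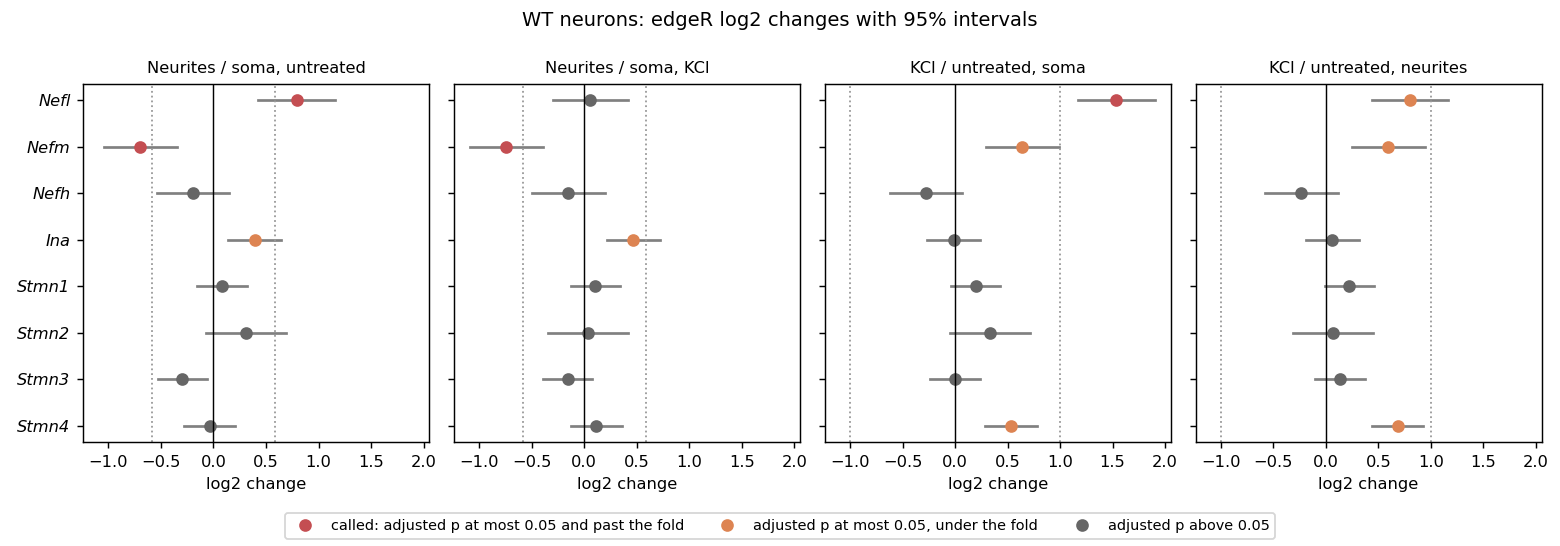
Log2 changes of the 8 RNAs in WT neurons with 95% intervals from edgeR, 1 panel for each comparison, the vertical line at 0 marking no change. Nefl and Nefm lie on opposite sides of 0 in untreated neurite enrichment, and Nefl has the largest change of the 8 in both KCl responses.

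The neurite enrichment of Nefl was lower after KCl. With 1 term per insert, its enrichment fell by 0.71 on the log2 scale (SE 0.21). This had an unadjusted edgeR p of 0.00752 (adjusted p = 0.999), which passed the unadjusted threshold of the study and not an adjusted one. It was the only one of the 8 genes to do so, where 3.36% of all genes did. The other 7 lay between −0.24 (Stmn2) and 0.15 (Stmn4), and the median was 0.04 over the 8 genes and 0.05 over all genes. The value for Nefl was −0.47 without Ctrl replicate 2 (unadjusted edgeR p of 0.172) and −0.82 in the fit to all 16 libraries (unadjusted edgeR p of 0.0598), and it was not called in either.

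Within each library, the composition of the neurofilament RNA pool differed with KCl. Per kilobase of exon, Nefl made up 49.2% and 50.9% of the summed level of the 4 neurofilament RNAs in untreated WT soma, and 57.5% and 63.5% in untreated WT neurites. After KCl its share was 71.6% and 72.8% in WT soma and 69.1% and 73.2% in WT neurites. The KCl-treated libraries all lay above the untreated ones. Ina, a chain that neurons already express early in development, made up 35.7% and 32.9% in WT soma without KCl and 18.6% and 15.5% with it, while its own level was 271 and 247 CPM without and 269 and 245 with KCl. The Nefl to Nefm ratio per kilobase of exon was 4.29 and 4.05 in untreated WT soma and 9.32 and 14.2 in untreated WT neurites. With KCl this ratio was 8.80 and 7.01 in soma and 12.9 and 14.1 in neurites, so that neurites lay above soma in both conditions. Counting length on unshared exon bases would multiply this ratio by the same factor in every library.

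The Mettl3 KO libraries were ordered in the same way. Nefl made up between 35.8% and 47.9% of the 4 neurofilament RNAs in the 4 untreated Mettl3 KO libraries and between 69.9% and 75.2% in the 4 KCl-treated ones, including the pair with few neuron markers. These shares are a description within libraries, with no test.

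Stathmin proportions were close between the replicates of untreated WT soma. They are shares per kilobase of annotated exon, so the share of Stmn2 depends on its 5602 annotated exon bases. In untreated WT soma Stmn3 made up 44.2% and 44.1% of the 4 stathmin RNAs per kilobase, Stmn4 26.1% in both libraries, Stmn1 24.4% and 24.6% and Stmn2 5.32% and 5.12%. With KCl, Stmn4 made up 31.8% and 33.0% in WT soma and 33.1% and 36.4% in WT neurites. Stmn3 was then at 37.8% and 37.9% in soma and at 34.9% and 32.5% in neurites. The Stmn2 replicates lay further apart in KCl-treated WT soma, at 6.30% and 4.85%. Untreated WT neurites held 38.4% and 38.3% Stmn3 and 26.8% and 27.4% Stmn4.

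**Figure D4:**
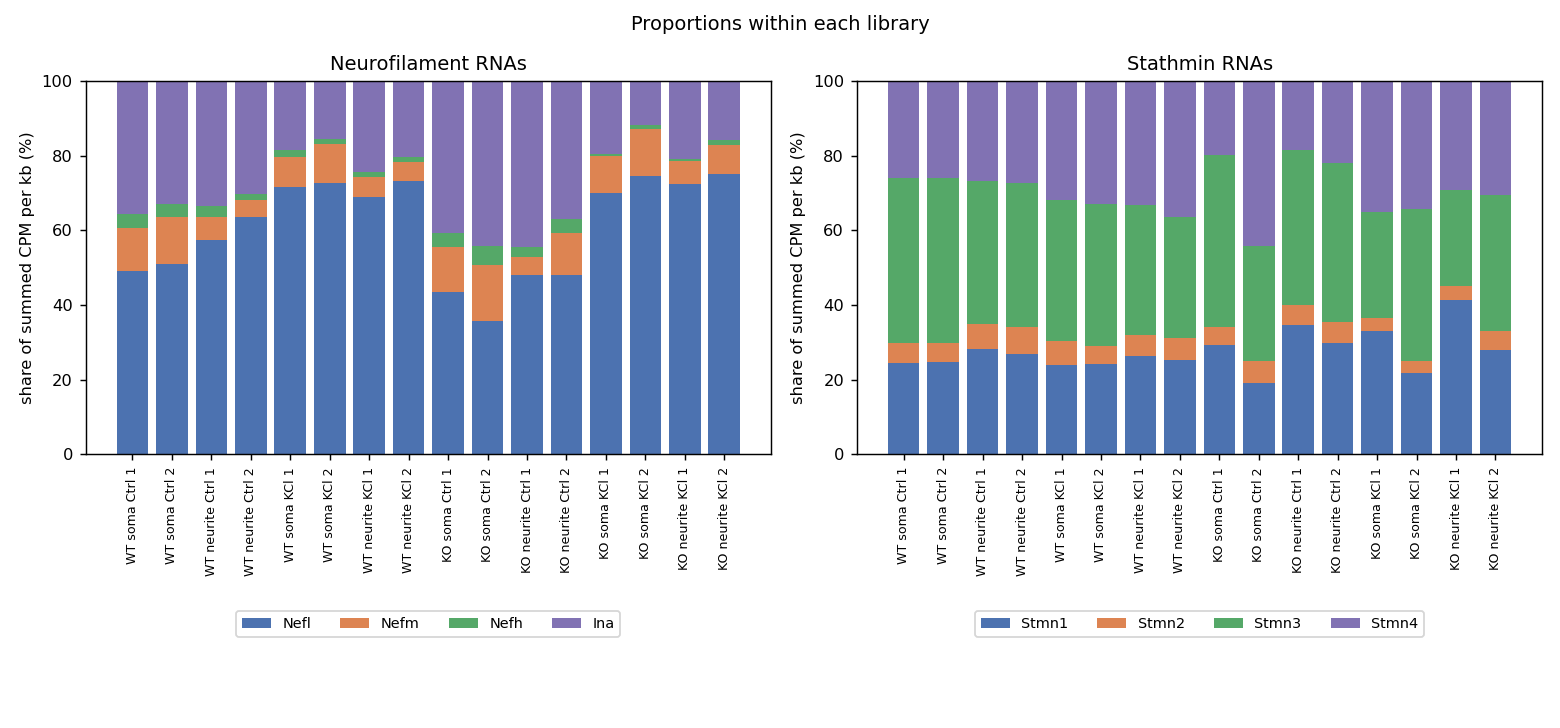
Stacked shares, in percent of the summed CPM per kilobase, of the 4 neurofilament RNAs and of the 4 stathmin RNAs in each of the 16 libraries. The Nefl share lies between 35.8% and 63.5% in untreated libraries and between 69.1% and 75.2% in KCl-treated ones, and the Stmn3 share is lowest in KCl-treated Mettl3 KO replicate 1, at 28.4% in soma and 25.8% in neurites, followed by untreated Mettl3 KO soma replicate 2 at 31.0%.

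None of the 8 genes was called between Mettl3 KO and WT, and few genes were called at all. In untreated soma, 0.189% of all genes were called between Mettl3 KO and WT, in untreated neurites 0.171%, in KCl-treated soma 0.227% and in KCl-treated neurites 0.433%. In each of the 4 comparisons 0 of the 8 genes were called by edgeR and 0 by DESeq2, and 0 had an unadjusted edgeR p below 0.05. The log2 differences ran from −0.22 (Stmn3) to 0.49 (Ina) in untreated soma, from −0.64 (Nefl) to 0.56 (Stmn1) in untreated neurites, from −0.95 (Stmn2) to 0.38 (Nefm) in KCl-treated soma and from −0.61 (Ina) to 0.30 (Nefm) in KCl-treated neurites. Medians over the 8 genes were −0.08, 0.18, −0.19 and −0.24 in that order, against 0.02, 0.01, 0.03 and 0.09 over all genes.

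For Nefl the intervals were wide. In untreated soma it measured 322 and 367 CPM in Mettl3 KO against 391 and 399 in WT, without overlap (log2 −0.17, 95% interval −1.51 to 1.16, edgeR adjusted p = 0.957). In untreated neurites it measured 478 and 456 CPM against 603 and 822, again without overlap (log2 −0.64, 95% interval −1.98 to 0.70, edgeR adjusted p = 0.941). Both Mettl3 KO libraries were below both WT libraries in each compartment, at a spread that did not allow a call. Neuron markers were also lower in these Mettl3 KO neurites, at a sum of 2934 and 3356 CPM against 4666 and 4983 in WT, and overlapped in soma (2984 and 4168 against 3725 and 3840). Astrocyte markers summed to 2539 and 2124 CPM in Mettl3 KO soma against 1240 and 1259 in WT, and to 7241 and 2998 in neurites against 3351 and 2087. The part of these markers in the values of Nefl was not tested.

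In KCl-treated Mettl3 KO neurons the replicates of most of the 8 genes were far apart. Nefl measured 639.9 CPM in replicate 1 and 1738 in replicate 2 of the soma, and 321 and 1809.8 in neurites. Nefh measured 5.91 and 31.4 CPM in soma and 2.44 and 34.4 in neurites. In neurites replicate 1 was below replicate 2 for all 8 genes, by 2.27-fold for Stmn1 to 14.1-fold for Nefh. Replicate 1 is the pair in which neuron markers were low and glial markers high, and their part in these values was not tested. Without Mettl3 KO neurite KCl replicate 2, which left replicate 1 alone in that group, Nefl was at −1.85 between Mettl3 KO and WT neurites. Without both libraries of replicate 1, which left replicate 2 alone, Nefl was at 0.61.

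Within Mettl3 KO neurons, Nefl was higher with KCl by 1.78 in soma (SE 0.82, edgeR adjusted p = 0.759) and by 1.20 in neurites (SE 0.80, adjusted p = 0.732) on the log2 scale, against 1.54 and 0.80 in WT. The KCl response of Nefl differed between the genotypes by 0.23 in soma (SE 0.87, adjusted p = 0.992) and by 0.51 in neurites (SE 0.87, adjusted p = 0.922). No gene was called for the KCl response in Mettl3 KO soma or neurites (0% of 23099 genes in both), where 1432 and 1413 genes passed 2-fold at an unadjusted p and DESeq2 called 270 and 251. Without a filter on low counts, 1 of the 8 genes was called in soma, which was Nefl at 1.81 (adjusted p = 0.0305). The lowest of the 8 was Nefh, at −1.33 in soma and −1.06 in neurites, and the medians were 0.08 and −0.41, against 0.06 and −0.00 over all genes.

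Neurite enrichment in Mettl3 KO neurons was not called for any gene either, at 0% of 23099 genes without and 0% with KCl. At an unadjusted p 1214 and 146 genes passed the 1.5-fold threshold, and DESeq2 called 8 and 0. Nefl was at 0.37 (SE 0.79) untreated and −0.21 (SE 0.79) with KCl, and Nefm was the lowest of the 8 at −0.69 (SE 0.92) and −0.91 (SE 0.92). The highest were Stmn1 at 0.74 untreated and Stmn2 at 0.47 with KCl, and the medians were 0.22 and −0.08, against −0.11 and −0.01 over all genes. The change of untreated neurite enrichment with genotype was called for 0 of the 8 genes by edgeR and 0 by DESeq2, where 4.29% of all genes were, and ran from −0.44 (Nefl, SE 0.38) to 1.03 (Stmn3, SE 0.65), with a median of −0.03 both over the 8 genes and over all genes. Without Mettl3 KO Ctrl replicate 1, which left replicate 2 alone in that group, Stmn3 was at 2.08.

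That Stmn3 value turns on a single library. In untreated Mettl3 KO soma, Stmn3 measured 733 CPM in replicate 1 and 195 in replicate 2, and Stmn1 796 and 203. Replicate 1 was 3.76-fold above replicate 2 for Stmn3, 3.92-fold for Stmn1 and 2.05-fold for Stmn2, and 1.14-fold for Stmn4. Nefl went the other way at 0.878, and Nefh was 1.95-fold higher in replicate 2. The untreated Mettl3 KO neurites showed no such gap, at 684 and 677 CPM for Stmn3 and 968 and 799 for Stmn1. Over all genes of that soma pair, replicate 2 was lower by a median of 0.35 on the log2 scale for genes with under 2000 exon bases, against 0.01 higher for genes over 5000. Stmn3 has 1136 annotated exon bases, Stmn4 1916, Stmn1 1922 and Stmn2 5602. Stmn4, with a gap of 1.14-fold, and Stmn1, with 3.92-fold, thus have nearly the same annotated length. These lengths cover the exons of all annotated transcripts and can exceed the length of the expressed RNA. The part of length in these values was not tested.

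Called m6A sites were read from DART-seq, in which an APOBEC1-YTH fusion edits cytidines next to m6A to uridine. The deposited list holds 15 sites in 6 of the 8 genes, 8 in 3′ UTRs and 7 in coding sequence, and Stmn3 and Stmn4 are not listed. Windows of 25 bases (GRCm38) are shown for the strongest site of each gene and for the next strongest of Nefl and Nefm, since these carry most of the editing of each RNA. They were read from the genome 5′ to 3′ on the strand of the gene, so a window can run past the end of an exon. Capitals mark the RAC motif (A or G, then AC), in which the last letter is the edited C and the A before it the methylated base.
Nefl, 3′ UTR, chr14:68088454-68088478: tacatttaaaAACcctttaaagacc
Nefl, 3′ UTR, chr14:68088738-68088762: tgttcctaggAACtgcttggtttgt
Nefm, coding sequence, chr14:68120329-68120353: aggagcaggaAACtcaggagaaggg
Nefm, 3′ UTR, chr14:68119924-68119948: gggggctccaGACattgtattttcc
Nefh, 3′ UTR, chr11:4939063-4939087: atgtatgctgAACgctacgcgtaaa
Ina, 3′ UTR, chr19:47023958-47023982: ctgaaacggaAACctatgtttatcc
Stmn1, coding sequence, chr4:134470822-134470846: gcagaagaaaGACgcaaggtaaccc
Stmn2, 3′ UTR, chr3:8560743-8560767: tggtgctagaAACccaccattgcct

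The medium and heavy neurofilament RNAs carried the most editing of the 6, and the stathmins the least. In the order shown, the deposited WT editing was 4.18% and 1.65% at the Nefl sites, 7.52% and 6.90% at the Nefm sites, 8.01% at the Nefh site, 1.75% at the Ina site, 0.899% at the Stmn1 site and 1.13% at the Stmn2 site. The first Nefl site lies 1022 bases past the coding end, the Nefm 3′ UTR site 104 and the Nefh site 273 bases past it, by genomic position. All 15 sites have the RAC motif, as do all 18231 sites of the list, which the authors' filter required. The longer motif DRACH (A, G or T, then A or G, then AC, then A, C or T, which contains RAC and was read on the strand of the gene) was present at 12 of the 15 sites (80%) and at 70.9% of all sites. Because these values are averages over libraries, they come with no replicate error. No read depth comes with the site values.

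Summed over the sites of an RNA, the deposited WT editing score was 0.181 for Nefm (6 sites), 0.0970 for Nefh (2), 0.0451 for Nefl (3), 0.0263 for Ina (2), 0.0113 for Stmn2 (1) and 0.00899 for Stmn1 (1). These scores do not equal the sums of the deposited site values in every case: the site values sum to 0.0642 for Nefl and 0.219 for Nefm, above their scores, and to 0.0947 for Nefh and 0.0256 for Ina, slightly below, while the single-site values of Stmn1 and Stmn2 equal their scores. Site values and scores are therefore not compared with each other. The median over all 5643 RNAs of the table was 0.103 with 2 sites. Nefm was at percentile 72.8 of these RNAs, Nefh at 47.3, Nefl at 21.7, Ina at 10.1, Stmn2 at 2.00 and Stmn1 at 1.28. Per site, Nefh came before Nefm (0.0485 against 0.0301). The scores in Mettl3 KO were lower for all 6 (0.00372 to 0.0385), which the selection of sites against Mettl3 KO libraries had fixed.

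The scores of the compartments differed in direction between the filament chains. Each compartment score averages untreated and KCl-treated libraries together. For Nefl the score was 0.0347 in soma and 0.0588 in neurites, for Nefm 0.174 and 0.192, and for Ina 0.0185 and 0.0381. Nefh was the only one of the 6 with the higher score in soma, at 0.132 against 0.0418. Stmn2 stood at 0.00185 in soma and 0.0199 in neurites and Stmn1 at 0.00781 and 0.0103. Thus 5 of 6 had the higher score in neurites, and 68.8% of all RNAs of the table did. These differences were not tested, since the values are averages.

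**Figure D5:**
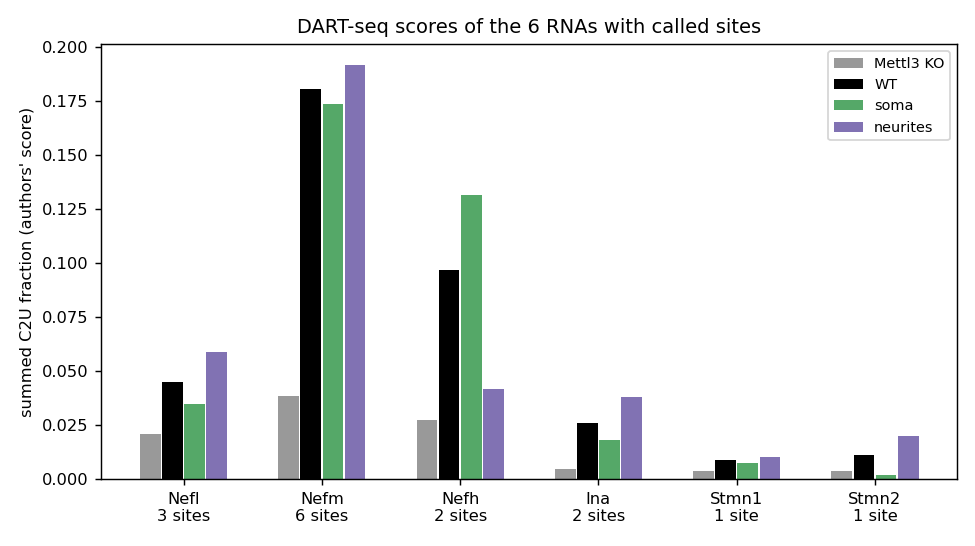
Deposited editing score (sum of the edited C-to-U fractions over the called sites of an RNA, linear axis from 0) of the 6 RNAs with sites, in WT, Mettl3 KO, soma and neurites, with the number of sites under each name. Nefm has the highest WT score at 0.181 and Nefh is the only one with a soma score (0.132) above its neurite score (0.0418).

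Other genes of the same biology were read from lists. Of 10 measured genes among the other intermediate filament genes, 4 passed the test for untreated WT neurite enrichment. Vim (log2 1.03), Nes (2.02) and Gfap (1.44), which encode vimentin, nestin and the astrocyte filament protein, were higher in neurites, and Lmnb1 (−0.77), a nuclear lamin, was lower. Gfap is also on the list of astrocyte markers, whose summed level was higher in these neurite libraries. Among 18 kinases and partners that act on stathmins or neurofilaments, Kif5a (1.89), a motor that carries neurofilaments, was higher in neurites, and none was lower. Of 12 growth-associated genes, 3 were higher, Gap43 (0.92), Map1b (0.89) and Dpysl3 (0.65), and none was lower. The list medians were 0.28, 0.14 and 0.38, beside −0.10 for all genes and 0.02 for the 8 members. After KCl, 2 filament genes (Nes and Gfap) were higher in neurites and 1 (Lmna) lower, 5 of the 18 kinases and partners were higher (Kif5a at 1.75, and Cdk5r1 at 1.04 and Cdk5r2 at 1.03, the activators of CDK5), and the same 3 growth-associated genes were higher.

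For the KCl response, 1 gene of each list was called in WT soma, where 6.81% of all genes were. There Lmna, which encodes lamin A, rose by 1.68 on the log2 scale and was the only one of 10 filament genes called, Cdk5r1 fell by 1.33 and was the only one of 18 kinases and partners, and Sprr1a rose by 3.54 from a level of 0.110 CPM and was the only one of 12 growth-associated genes. In WT neurites Lmna rose by 1.30 and Sprr1a by 3.97, and no kinase or partner was called by edgeR. The KCl change in neurite enrichment was called upward for Cdk5r1 (0.82) among the kinases and partners, and for no gene of the other lists. In Mettl3 KO neurons and between the genotypes, no other filament gene or growth-associated gene was called by edgeR, apart from Nes (−1.09), whose untreated neurite enrichment was lower in Mettl3 KO before adjustment.

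Across the 16 libraries Nefl and Stmn4 varied together most closely of all pairs of the 8 (Pearson's r of log2 levels 0.89 over 16 libraries and 0.85 over the 8 WT libraries). Other pairs were alike over all libraries but not in WT alone, such as Nefh with Ina (0.88 and −0.38) and Stmn2 with Stmn3 (0.86 and −0.02). Of 15162 genes, those most like Nefl were Cry2 (0.95), Spry4 (0.90) and Irf2bp2 (0.90), and those most like Stmn4 were Rybp (0.92), Aloxe3 (0.91) and A330040F15Rik (0.90). These correlations are descriptions over libraries that share groups, treatments and scaling.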

How the data were processed

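RNA-seq was deposited as a table of whole-number counts that the authors made with STAR 2.7.7a and featureCounts 2.0.1 on the Ensembl GRCm38 annotation (paired fragments, exons, multi-mapping reads included, strand not used). Exon lengths in bases are as deposited with that table. DART-seq values are the authors' averages: the score of an RNA is described as the sum of average edited fractions over its called sites, and the site value is a fraction averaged by the authors over WT libraries. The WT score and the sum of the WT site values differ for 4 of the 6 members with sites, and the cause was not tested. Soma and neurite scores pool untreated and KCl-treated libraries. The authors called sites with Bullseye, which required more editing than in every Mettl3 KO library and a RAC motif. Fold changes and p-values of the authors' own comparisons (DESeq2 tables of neurite enrichment and a binomial model of editing) were deposited too and not used.

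The members and gene lists were chosen with earlier results of these data known. Named genes are the 8 members, Mettl3, up to 3 called genes of each list per comparison (all for untreated WT neurite enrichment) and, for the neurofilament and the stathmin with the highest mean level, the 3 genes of highest Pearson's r. Some called genes of the lists are not reported here.

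Counts were tested in edgeR 4.0.16 under R 4.3.3 (TMM, two-sided quasi-likelihood test, Benjamini-Hochberg adjustment over all genes tested). Genes needed a mean count of 10 in the libraries of the fit, and 37 mitochondrially encoded genes were left out. WT comparisons used 8 WT libraries, Mettl3 KO comparisons 8 Mettl3 KO libraries and comparisons of genotypes all 16. Neurite enrichment and genotype needed 1.5-fold and an adjusted p of at most 0.05, the KCl response 2-fold, and changes in enrichment 1.5-fold at p up to 0.05 before adjustment, in a model with 1 term per insert (by replicate number). DESeq2 1.42.0 was an alternative, and the alternatives are given in the closing section. The fits were tested on simulated data before use. Levels are CPM, and log2 levels used a prior count of 2. Places, UTRs and windows were read from GRCm38 with GENCODE M21, and copies of the members were searched with BLAST 2.17.0. Depth ran from 33789183 to 71394235 counts per library; reads without molecular identifiers are not independent molecules. Promoter and protein sequences of the members were not used here.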

Additional observations from a re-analysis of the deposited data

Results flagged for a closer look

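The neurite enrichment of Nefl in WT neurons differed between KCl-treated and untreated inserts by a test of the difference itself. It fell by 0.71 on the log2 scale (SE 0.21), from a 1.73-fold enrichment without KCl to 1.04-fold with it, with an unadjusted edgeR p of 0.00752 and adjusted p = 0.999. Both untreated neurite-to-soma ratios (1.54 and 2.06) lay above both KCl-treated ones (0.976 and 1.08). The soma level rose 2.90-fold with KCl and the neurite level 1.74-fold. Over 11 alternatives the change ran from −0.94 to −0.47. None of the other 7 genes passed the threshold, and their changes lay between −0.24 and 0.15. The change in Nefl rests on 2 inserts a condition: without Ctrl replicate 2 it was −0.47 and not called.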

How the results depend on the processing

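Of 439 values under alternatives for single genes, 396 kept their direction and side of the threshold, 16 lost the threshold, 6 passed it and 21 changed sign. Alternatives were DESeq2, RLE scaling, 2 other filters on low counts, other sets of libraries, replicate terms and each replicate left out. With DESeq2, RLE scaling or a mean count of at least 100, the number of the 8 genes called was the main one in all 14 comparisons. In the fit to all 16 libraries, 0 of the 8 were called for untreated WT neurite enrichment (2 in the WT fit), KCl-treated WT neurite enrichment (1), the WT soma KCl response (1) and the KCl change in WT neurite enrichment (1). That last count was also 0 at an adjusted p. Over all genes the fit to 16 libraries called 0 in place of 3133 for untreated WT enrichment, 0 in place of 2213 after KCl, 332 in place of 1581 for KCl in soma, 254 in place of 1147 in neurites and 285 in place of 779 for the KCl change in enrichment, for which DESeq2 called 498 and no filter 1457. It pools Mettl3 KO libraries with their wider spread. For Mettl3 KO against WT, DESeq2 called 413, 306, 1023 and 2574 genes in untreated soma and neurites and KCl-treated soma and neurites, in place of 44, 40, 53 and 101, and without a filter edgeR called 505, 353, 2118 and 3284. Without a filter on low counts, 1 of the 8 was called for the KCl response in Mettl3 KO soma and 2 for the genotype change in enrichment (2676 of all genes in place of 1001), where the cause was not tested.

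Leaving out each replicate in turn, with a lone library then assumed to vary like the other groups, the number of the 8 called ran from 0 to 2 for untreated WT enrichment, 0 to 1 for KCl-treated WT enrichment, 0 to 1 for KCl in WT neurites, 0 to 2 for the KCl change in WT enrichment, 0 to 5 for Mettl3 KO against WT in KCl-treated neurites and 0 to 2 for the genotype change in enrichment. Over all genes it ran from 1076 to 3642 for untreated WT enrichment and from 731 to 2379 after KCl. For the comparisons of genotypes, the counts of the 8 stand without the counts over all genes in the same fits. They are not read as a result about these genes. Log2 values that changed sign ran as follows. In KCl-treated WT enrichment Nefl ran from −0.084 to 0.19, and in the KCl change of WT enrichment Stmn4 ran from −0.039 to 0.35. In KCl-treated Mettl3 KO enrichment Nefl ran from −1.95 to 0.67, Nefm from −2.90 to 0.16 and Stmn2 from −0.96 to 1.24. In the KCl response of Mettl3 KO neurites Nefl ran from −0.67 to 2.04. Between Mettl3 KO and WT, Stmn3 ran from −1.51 to 0.42 in untreated soma, Nefl from −0.82 to 0.60 and Nefm from −0.67 to 0.99 in KCl-treated soma, and Nefl from −1.85 to 0.64, Nefm from −1.66 to 1.11 and Ina from −1.95 to 0.089 in KCl-treated neurites. Without both libraries of KCl-treated Mettl3 KO replicate 1, Nefl was at 0.10 in Mettl3 KO enrichment, and between the genotypes in KCl-treated neurites Nefl was at 0.61 and Ina at 0.057. The cause of these changes was not tested.

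The study's methods pair soma and neurites of 1 insert and take untreated and KCl-treated neurons from 1 litter, but the labels do not say that replicate numbers mark these pairs, and the counts did not show it in every group. Replicate differences of soma and neurites correlated over genes at −0.07 and 0.08 in WT and at 0.02 and 0.82 in Mettl3 KO, without and with KCl. A replicate block, or leaving it out where the main fit had it, left every number of the 8 called as it was. Without the block the genotype change in enrichment was called for 312 of all genes in place of 1001. It turned Nefl in KCl-treated soma to −0.070 and Nefm in KCl-treated neurites to −0.018 between the genotypes. The order of Nefm and Nefh by editing score was turned by the score per site, with Nefm at rank 2 and Nefh at rank 1. With 2 libraries a group and the spread of the Mettl3 KO libraries, the intervals for Nefl between the genotypes were wide. They held no difference as well as differences of the size seen. An effect of Mettl3 on these RNAs was therefore neither detected here nor shown to be absent. DART-seq averages have no replicate error.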
